A study of Mus musculus with 41 samples.

Results

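Autophagy genes were followed in microglia sorted from the cerebellum of Niemann-Pick type C (NPC) mice and wild-type (WT) mice. The list holds 43 genes of the autophagy machinery and its cargo receptors, chosen by symbol from the 24015 genes of the deposited table, and all 43 were found there. The WT mice were of strain balb/c and the NPC mice of strain BALB/cNctr-Npc1m1N/J, which carries a mutant Npc1 gene. Untreated mice of both genotypes were taken at ages of 1, 3, 6 and 9 weeks. A further pair of NPC groups at 9 weeks was labelled PLX5622, an inhibitor of the CSF1 receptor on which microglia depend, and Control; dose and duration are not given in the sources used here. There were 41 libraries: 5 in the PLX5622 group, 5 in the Control group, 3 from untreated NPC mice aged 9 weeks and 4 in every other group. Cells positive for CD11b and Tmem119 were sorted from perfused cerebella, and polyadenylated RNA was amplified with SMART-seq v4 chemistry before sequencing. Each library is a bulk sample, so fewer cells of a type and less RNA per cell cannot be told apart. The labels count mice as replicates but do not say whether NPC and WT mice were littermates.

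Autophagy encloses cytoplasm in a double membrane and delivers it to the lysosome. A kinase complex built on Ulk1 starts the process, a lipid kinase complex built on Beclin 1 marks the membrane, and conjugation enzymes attach the small ubiquitin-like Atg8 proteins (the LC3 and GABARAP families) to it. Receptors such as Sqstm1 and Optn bind both cargo and Atg8 proteins, and SNARE proteins fuse the finished vesicle with the lysosome. NPC1 exports cholesterol from the lysosome, and its loss loads that organelle with cholesterol and other lipids, so autophagy ends in a compartment that is itself affected in this disease.

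The recovered read total per library ranged from 23.2 M to 40.5 M reads. All 43 genes passed the filter on low values in every comparison, and the lowest single value was 79.3 normalized counts, for Rb1cc1. Npc1 lay between 2606 and 7386 normalized counts in the WT libraries and between 291 and 787 in the NPC libraries. The microglial marker Tmem119 lay between 52430 and 318600 normalized counts and Csf1r between 363900 and 748300 over all libraries, and none of 7 microglial markers was at 0 in any library. NPC library C at 3 weeks stood apart: over all genes, its deviation from the WT mean fell most with transcript length. The Spearman rho was -0.41 in C, beside -0.095 in A, -0.18 in B and -0.21 in D. Across the 43 genes the rho of -0.75 in C lay near those of B (-0.70) and D (-0.69), with -0.36 in A. Library C was the lowest of the 4 NPC libraries for the long genes Rb1cc1, Atg2a, Mtor and Epg5. NPC libraries B and C at 6 weeks held the highest summed level of 8 astrocyte markers (15100 and 14650 normalized counts, against 9610 to 10790 in WT). PLX5622 library 3 held 98260 normalized counts of 8 monocyte and neutrophil markers, against 642 to 6810 in the other PLX5622 libraries and 325 to 5165 in Control. The counts for the age comparisons are given below with and without NPC library C at 3 weeks, those at 6 weeks also without NPC libraries B and C, and those for PLX5622 without its library 3.

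Of the 43 genes, 6 passed the test at each of the 3 later ages. Becn1, Gabarap, Gabarapl1, Sqstm1, Optn and Snap29 were higher in NPC than in WT mice at 3, 6 and 9 weeks. Without both NPC libraries B and C at 6 weeks, Becn1, Gabarap, Gabarapl1 and Sqstm1 no longer passed at that age. Optn, a receptor for ubiquitin-tagged cargo such as damaged mitochondria, showed the largest fold change of the list at 9 weeks (6.95-fold, 95% confidence interval 4.41 to 10.95). At 1 week the genes past the threshold were Atg7, the enzyme that activates the Atg8 proteins, and Snap29, a SNARE of vesicle fusion. In all, 19 of the 43 genes passed the test at 1 or more of the 4 ages and 24 at none. Counts over several ages were not made for all genes, so these cannot be set beside such a share.

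Tests were made with limma on log2(normalized count + 1), with Benjamini-Hochberg adjustment over all genes tested and a threshold of 0.05. Fold changes are on that scale, with a 95% confidence interval. Passing, here and below, means passing this test in the fit on all libraries of the comparison unless another fit is named; the spread is pooled over its groups, so a library of 1 age bears on the p-values of the others. At 1 week 2 of the 43 genes were higher in NPC mice, where 0.876% of all 14046 genes tested were higher, and 0 were lower (0.577% of all genes). At 3 weeks 10 were higher (14.3% of all genes) and 7 lower (12.6%). At 6 weeks 6 were higher (8.76%) and 1 lower (6.5%). At 9 weeks 8 were higher (11.2%) and 0 lower (7.77%). The median log2 difference of the 43 genes was 0.15 at 1 week, -0.14 at 3 weeks, -0.16 at 6 weeks and -0.001 at 9 weeks, beside 0.003, -0.04, -0.02 and 0.03 over all genes. As counts with no test, the shares of the list called higher lay above those of all genes at each age, and the shares called lower lay below them at 6 and 9 weeks. Libraries of the groups did not overlap for 9 genes with NPC higher (4.59% of all genes) and 0 with NPC lower (4.04%) at 1 week, for 8 (12.3%) and 5 (10.9%) at 3 weeks, for 8 (10.4%) and 5 (9.53%) at 6 weeks, and for 12 (20.8%) and 4 (17.5%) at 9 weeks.

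**Figure D1:**
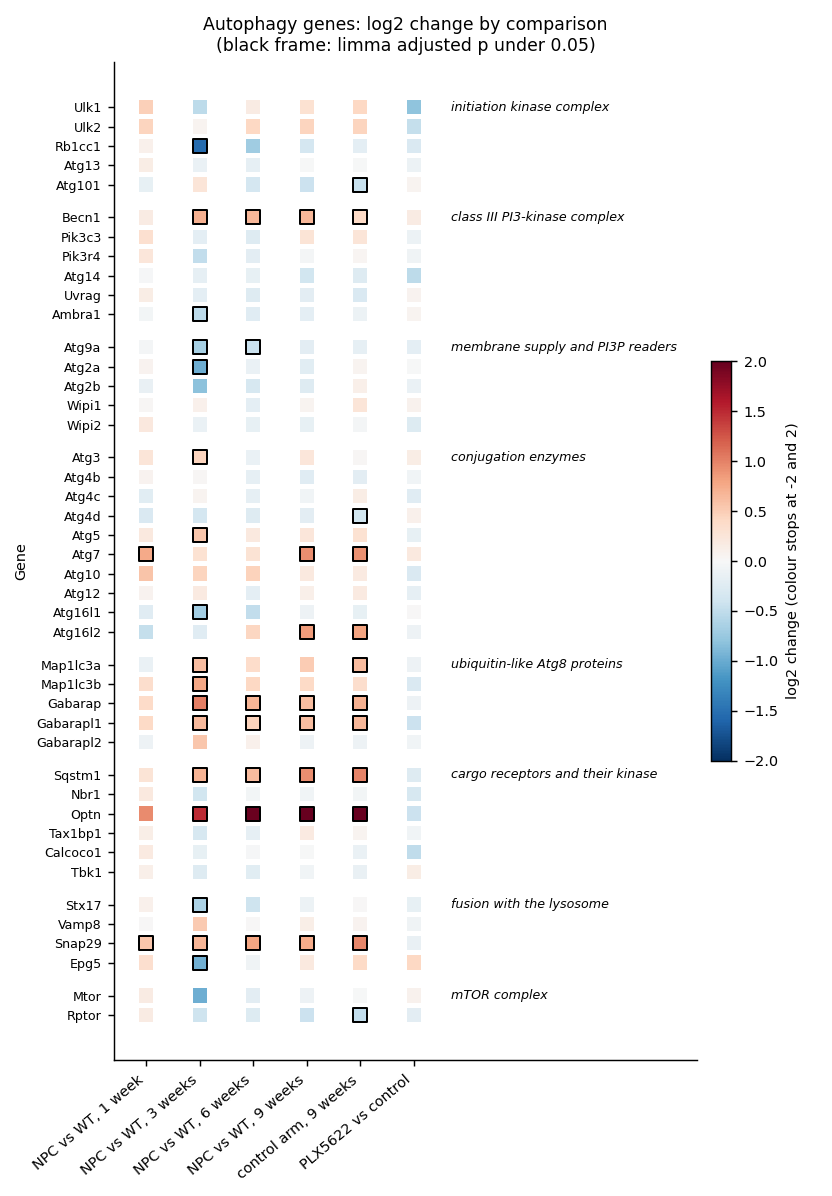
Each row is 1 of the 43 genes, grouped by role, and each column is a comparison: NPC against WT at 4 ages, NPC mice of the Control group against WT at 9 weeks, and PLX5622 against Control. Colour gives the log2 change and a black frame marks a limma adjusted p under 0.05. The framed cells at 6 and 9 weeks are nearly all higher, those at 3 weeks are 10 higher and 7 lower, and the PLX5622 column has none.

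These counts depended on the fit. Shares of all genes are given for the main fit only, so counts from other fits are not read as traits of the list. Libraries with the same letter deviated together at 1 week (r from 0.111 to 0.163 in the 4 pairs). The highest r with another letter was from 0.023 to 0.116, and in C the 2 were close (0.122 and 0.116). With the letter as a replicate block 6 genes were higher at that age. They were Atg7, Snap29, Optn (log2 change 0.94, adjusted p = 0.0232 by limma), Ulk2 (0.45, 0.0231), Ulk1 (0.47, 0.0307) and Map1lc3b (0.35, 0.0376). At 3 weeks, 9 genes were higher and 1 lower without NPC library C, 12 and 2 by edgeR, and 2 (Sqstm1 and Snap29) and 0 when the 3-week libraries were fitted alone. Rescaling each library to the same total moved the median of all genes at 3 weeks from -0.04 to -0.17 and gave 8 higher and 12 lower, and quantile normalization gave 10 and 4. The same rescaling gave 7 higher and 0 lower at 6 weeks and 8 higher and 2 lower at 9 weeks.

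NPC library C at 3 weeks also bore on the other ages through the pooled spread. Without it 4 genes were higher at 1 week, with Optn (adjusted p = 0.00571) and Atg10 (0.0488) added. At 6 weeks 8 were higher, with Map1lc3b (0.00603) and Atg10 (0.0442) added, and 3 lower, with Rb1cc1 (0.00738) and Atg16l1 (0.00405) added. At 9 weeks 10 were higher, with Ulk2 (0.0449) and Map1lc3b (0.0142) added, and 3 lower: Atg101 (0.0433), Atg14 (0.0345) and Rptor (0.0368). With the 9-week groups fitted alone, 11 genes were higher and 4 lower at that age, and with the replicate block 12 and 3.

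The kinase complex that starts autophagy comprised Ulk1 and Ulk2, the kinases, with the scaffold Rb1cc1 (also called FIP200) and the adaptors Atg13 and Atg101. Of these 5 genes, 1 passed the test in NPC against WT at any age, Rb1cc1, which was lower at 3 weeks. Rb1cc1 stood at 1865, 1655, 1804 and 1409 normalized counts in the WT libraries at 3 weeks and at 1362, 873, 79 and 1171 in the NPC libraries, with no overlap. The fitted change was -1.53 on the log2 scale (SE 0.48, adjusted p = 0.0204 by limma). Without library C, which holds the value of 79, it was -0.58 (adjusted p = 0.0581). At 9 weeks Rb1cc1 again had no overlap between groups, with 1452, 1392, 1469 and 1536 in WT and 1127, 1097 and 1199 in NPC, but the change of -0.36 did not pass (adjusted p = 0.695). It passed with the 9-week groups fitted alone (adjusted p = 0.0187).

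Ulk2 was the kinase with the higher count, and its values in NPC mice at 9 weeks (6585, 8847 and 7496) all lay above those in WT mice (5251, 5293, 6154 and 5720). Its log2 change was 0.45 at 1 week, 0.05 at 3 weeks, 0.41 at 6 weeks and 0.44 at 9 weeks, and none passed (adjusted p from 0.105 to 0.842), though the changes at 6 and 9 weeks did after length correction (0.49 and 0.50, adjusted p = 0.00528 and 0.00744). For Ulk1 the log2 change ranged from -0.53 at 3 weeks to 0.47 at 1 week. Atg13 differed by no more than 0.18 in size at any age. Atg101 had changes of -0.17, 0.25, -0.36 and -0.43 in order of age, none past the threshold; that at 9 weeks passed in 6 alternatives, among them the groups fitted alone (adjusted p = 0.0231).

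In the lipid kinase complex, Becn1 (Beclin 1), the scaffold of the complex, was higher in NPC mice at 3 of the 4 ages. At 3 weeks it stood at 2051, 1967, 2419 and 2282 normalized counts in WT and at 3049, 3175, 5459 and 3028 in NPC libraries. At 6 weeks the WT libraries held 2147, 2157, 1930 and 1923 and the NPC libraries 3010, 3586, 3570 and 2870. At 9 weeks the values were 2718, 2516, 2227 and 2151 in WT and 4104, 3632 and 3610 in NPC. The groups did not overlap at any of these ages. The fold changes were 1.64 (1.35 to 1.99, adjusted p = 0.00048), 1.59 (1.31 to 1.94, adjusted p = 0.000871) and 1.58 (1.28 to 1.95, adjusted p = 0.00188), all by limma. At 1 week, when Becn1 was at its WT maximum (3414 to 3659), the NPC values of 3601 to 4422 overlapped with them.

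Becn1 shares 29.6% of its exon bases with Cntd1 on the opposite strand, and whether the counting used strand is not given in the sources used here. The mean of Cntd1 was at most 60.3 normalized counts in any group. Without both NPC libraries B and C at 6 weeks, the log2 change of Becn1 at that age was 0.53 rather than 0.67, with an adjusted p of 0.0595 by limma. The catalytic subunit Pik3c3 and its partner Pik3r4 did not pass at any age, nor did Atg14 and Uvrag, which define the complexes for autophagosomes and for endosomes. Atg14 at 9 weeks, at -0.39 (adjusted p = 0.0567), was called lower by DESeq2 (adjusted p = 0.0496) and with the groups fitted alone (0.031). Ambra1, a regulator of the complex, was lower at 3 weeks (log2 change -0.52, adjusted p = 0.0472 by limma), with 2115, 2170, 1904 and 1888 in WT and 1950, 1631, 789 and 1554 in NPC. These groups overlapped, and without library C the change was -0.24 (adjusted p = 0.311).

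Among genes for membrane supply and for reading the lipid mark, 2 of 5 were lower at 3 weeks, 1 at 6 weeks, and 0 were higher at any age. Atg9a, the membrane protein that seeds the autophagosome, stood at 2413, 2348, 2210 and 1981 normalized counts in WT at 3 weeks and at 1638, 1774, 857 and 1585 in NPC. At 6 weeks it stood at 2504, 2171, 2306 and 1901 in WT and at 1757, 1773, 1463 and 1510 in NPC. The groups did not overlap at either age. The log2 changes were -0.66 (SE 0.15, adjusted p = 0.00252) and -0.45 (SE 0.15, adjusted p = 0.0453), by limma. Without library C at 3 weeks the first became -0.42 (adjusted p = 0.00904), and the second lost its call in 6 of 9 fits that left out 1 library. At 9 weeks the groups overlapped and the change was -0.21 (adjusted p = 0.428). Gm29253, annotated as a processed transcript, lies on the same strand as Atg9a and covers 41.8% of its exon bases.

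Atg2a, a lipid transfer protein, was lower at 3 weeks (log2 change -0.98, adjusted p = 0.0229 by limma), with 2620, 2296, 2083 and 1971 in WT and 1974, 1351, 404 and 1515 in NPC. The value of 1974 lies above the lowest WT value by a few counts, so the groups overlap. Without library C the change was -0.49 (adjusted p = 0.157). Its paralog Atg2b had a change of -0.81 that did not pass (adjusted p = 0.0538). Wipi1 and Wipi2, which bind the lipid mark, differed by at most 0.21 in size at any age.

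Of the 10 conjugation enzymes, 5 passed the test at 1 or more ages. Atg7, the activating enzyme, was higher at 1 week and at 9 weeks. At 1 week it stood at 841, 1198, 990 and 976 normalized counts in WT and at 1597, 1759, 1521 and 1883 in NPC. At 9 weeks the WT libraries held 1017, 1113, 996 and 1019 and the NPC libraries 2067, 2043 and 1844. No NPC library overlapped with WT at either age, and the fold changes were 1.70 (1.40 to 2.05, adjusted p = 0.00173) and 1.91 (1.56 to 2.35, adjusted p = 1.72e-05), by limma. In between the groups overlapped, with fold changes of 1.24 (adjusted p = 0.0845) at 3 weeks and 1.22 (adjusted p = 0.148) at 6 weeks. At 3 weeks without library C the log2 change of 0.41 passed (adjusted p = 0.0304).

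Atg16l2, a paralog of the Atg16l1 subunit that places the conjugation complex on membranes, was higher at 9 weeks. It stood at 440, 449, 272 and 411 in WT and at 680, 607 and 818 in NPC, without overlap (1.81-fold, 1.30 to 2.52, adjusted p = 0.00982 by limma). The call was lost without NPC library C at 9 weeks (adjusted p = 0.063). At 1 week Atg16l2 was at 441, 532, 363 and 428 in WT and at 235, 374, 333 and 328 in NPC, a log2 change of -0.48 that did not pass. The sign therefore differed between the first and the last age, and the test of that difference is given further on. Atg16l1 itself was lower at 3 weeks, at 1918 to 2036 in WT and at 1623, 1504, 580 and 1493 in NPC (log2 change -0.70, adjusted p = 0.0143), and without library C it was -0.35 (adjusted p = 0.0779).

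Atg3 and Atg5, the conjugating enzyme and the protein joined to Atg12, passed at 3 weeks and at no other age; the differences between 3 and 1 weeks and between 9 and 1 weeks were not called for either. Atg3 stood at 1528, 1751, 2048 and 1904 in WT and at 2056, 2663, 2504 and 2670 in NPC (1.37-fold, 1.13 to 1.66, adjusted p = 0.017). Atg5 stood at 2271, 2470, 2481 and 2147 in WT and at 2695, 3267, 5629 and 2805 in NPC (1.47-fold, 1.18 to 1.82, adjusted p = 0.00912). Neither gene overlapped between groups, and Atg5 lost its call without library C (adjusted p = 0.0516), Atg3 without WT library A (0.0734) or after rescaling (0.053). The proteases Atg4b, Atg4c and Atg4d, the enzyme Atg10 and the modifier Atg12 did not pass at any age. DESeq2 called Atg4d lower (adjusted p = 0.042) and Atg10 higher (0.0428) at 3 weeks. Atg10 had positive log2 changes of 0.58, 0.45, 0.46 and 0.19 in order of age, with adjusted p from 0.0767 to 0.578.

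The Atg8 proteins coat the growing membrane and hold the receptors. Of the 5 genes, 4 were higher at 3 weeks, 2 at 6 weeks and 2 at 9 weeks, and 0 were lower. Gabarap, the most abundant per transcript length, stood at 3144, 4797, 4457 and 4029 normalized counts in WT and at 5824, 6505, 14773 and 8143 in NPC at 3 weeks. At 6 weeks it stood at 4465, 4695, 3263 and 4136 in WT and at 5362, 7346, 7976 and 5872 in NPC. At 9 weeks the values were 4285, 3474, 3695 and 4257 in WT and 6100, 5570 and 6438 in NPC. Every NPC library lay above every WT library at these ages. The fold changes were 2.03 (1.52 to 2.70, adjusted p = 0.000662), 1.60 (1.20 to 2.13, adjusted p = 0.0217) and 1.54 (1.13 to 2.10, adjusted p = 0.0452), by limma. The value of 14773 came from library C, without which the log2 change at 3 weeks was 0.74 rather than 1.02 and still passed (adjusted p = 0.00223). The call at 9 weeks was lost when any 1 of the 7 libraries compared was left out (adjusted p up to 0.131). That at 6 weeks was lost when WT library C or NPC library B or C was left out (adjusted p up to 0.0896). Without both NPC libraries B and C the log2 change at 6 weeks was 0.45 (adjusted p = 0.365 by limma).

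Gabarapl1, a close relative of Gabarap, had the lowest level per length of the family in WT mice. At 3 weeks it stood at 618, 732, 670 and 642 in WT and at 954, 887, 1609 and 866 in NPC. At 6 weeks the values were 931, 863, 657 and 930 in WT and 1095, 1305, 1134 and 1101 in NPC. At 9 weeks they were 818, 812, 860 and 776 in WT and 1278, 1261 and 1231 in NPC. The groups were apart at all 3 ages, with fold changes of 1.57 (1.26 to 1.95, adjusted p = 0.0031), 1.38 (1.11 to 1.72, adjusted p = 0.0381) and 1.54 (1.22 to 1.95, adjusted p = 0.00773). The call at 6 weeks was lost without WT library B or C or NPC library B or C (adjusted p up to 0.156). It was also lost by edgeR (0.053), and by limma with the groups fitted alone (0.0607), with the replicate block (0.12) and without both NPC libraries B and C (0.291).

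Map1lc3b (LC3B), the usual marker of autophagosomes, was higher at 3 weeks, at 5059, 5738, 5567 and 5973 in WT and at 6997, 8558, 14895 and 9070 in NPC (1.70-fold, 1.37 to 2.11, adjusted p = 0.000608). Its groups did not overlap at 1, 6 or 9 weeks either, with fold changes of 1.28, 1.34 and 1.32, but those did not pass (adjusted p = 0.333, 0.061 and 0.0932). The change at 6 weeks passed by DESeq2 (adjusted p = 0.0464) and that at 9 weeks with the groups fitted alone (0.0034). Map1lc3a was higher at 3 weeks (1.53-fold, 1.11 to 2.11, adjusted p = 0.0448), with groups that overlapped (602, 936, 822 and 695 in WT, 885, 1014, 1790 and 1094 in NPC), and lost the call without library C (adjusted p = 0.224). Gabarapl2 did not pass at any age by limma, and was called higher at 3 weeks by edgeR (adjusted p = 0.0321) and DESeq2 (0.0187). At 3 weeks it was at 3403 in library C and at 1094 to 1531 in the other NPC libraries.

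Per 1000 bases of transcript, the order in WT mice at 9 weeks was Gabarap (2907 normalized counts per 1000 bases), Map1lc3b (2040), Gabarapl2 (651), Map1lc3a (593) and Gabarapl1 (449). In untreated NPC mice at 9 weeks it was Gabarap (4468), Map1lc3b (2684), Map1lc3a (841), Gabarapl1 (691) and Gabarapl2 (608). There the SD over libraries was 120, 12.9 and 73.4 for the last 3, and Map1lc3a and Gabarapl1 differ by little more than the larger SD. The wild-type level of Gabarap was higher at 1 week (5033 per 1000 bases) than at 9 weeks, whereas that of Gabarapl1 was lower at 1 week (309).

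**Figure D2:**
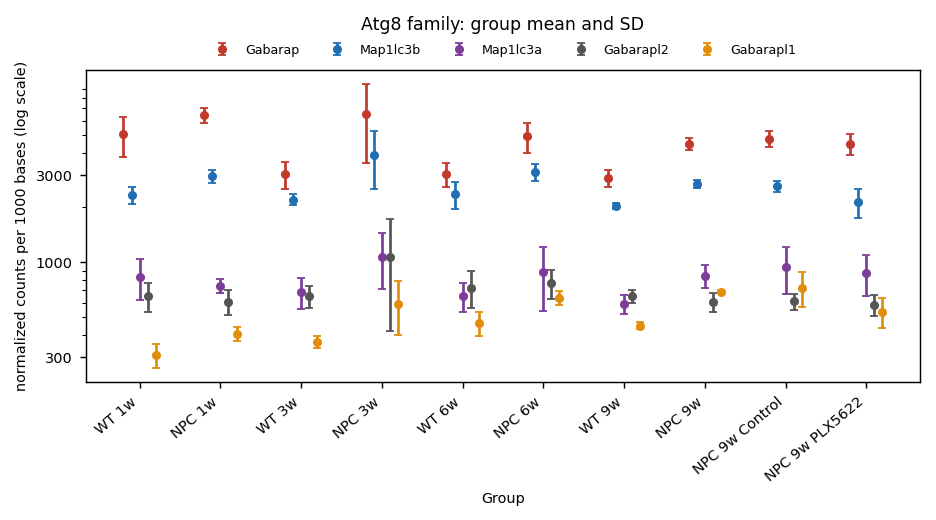
Points are the means of the 5 Atg8 genes in each of the 10 groups, in normalized counts per 1000 bases of principal transcript on a log axis, with bars of 1 SD. Gabarap and Map1lc3b lie above the other 3 genes in every group, and the bars of NPC mice at 3 weeks are wide for each gene.

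Among the 5 cargo receptors and their kinase Tbk1, Sqstm1 and Optn were higher at 3, 6 and 9 weeks, and Nbr1, Tax1bp1, Calcoco1 and Tbk1 passed at no age. Optn stood at 112, 150, 129 and 163 normalized counts in WT at 3 weeks and at 483, 594, 146 and 545 in NPC. At 6 weeks it stood at 132, 195, 133 and 185 in WT and at 595, 860, 618 and 496 in NPC. At 9 weeks the values were 136, 136, 155 and 131 in WT and 1065, 931 and 932 in NPC. The groups were far apart at 6 and 9 weeks, while at 3 weeks library C, at 146, lay within the WT range. The fold changes were 2.82 (1.85 to 4.30, adjusted p = 0.000607), 3.95 (2.59 to 6.02, adjusted p = 1.47e-05) and 6.95 (4.41 to 10.95, adjusted p = 1.71e-07), by limma. Without library C the log2 change at 3 weeks was 1.97, higher than with it.

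At 1 week Optn was at 324, 198, 313 and 467 in WT and at 583, 695, 587 and 540 in NPC. The groups did not overlap, and the 1.92-fold difference did not pass in the main fit (adjusted p = 0.127) but passed with the replicate block given above. Optn kept its call at 6 and at 9 weeks in every alternative run. Without NPC libraries B and C at 6 weeks its log2 change was 1.77, against 1.98 with them.

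Sqstm1 (p62), a receptor that is itself degraded by autophagy and is also a stress-response gene, was the receptor gene with the most counts. It stood at 10125, 10596, 8773 and 10845 in WT at 3 weeks and at 13911, 17450, 20032 and 14419 in NPC. At 6 weeks the values were 12281, 14191, 9921 and 12717 in WT and 17307, 22367, 21646 and 15009 in NPC. At 9 weeks they were 10383, 10095, 10834 and 10005 in WT and 19239, 19791 and 20026 in NPC. No NPC library reached down to the WT range at these ages. The fold changes were 1.62 (1.35 to 1.94, adjusted p = 0.000235), 1.55 (1.29 to 1.85, adjusted p = 0.000713) and 1.91 (1.57 to 2.31, adjusted p = 8.99e-06), by limma. At 1 week the values of 6949 to 8405 in WT and 8418 to 9992 in NPC were just apart, with a 1.22-fold difference that did not pass (adjusted p = 0.362).

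Without both NPC libraries B and C at 6 weeks, the log2 change of Sqstm1 was 0.40 rather than 0.63 and no longer passed (adjusted p = 0.0947). Sqstm1 shares 20.5% of its exon bases with Mrnip on the opposite strand. That gene, listed in the table as 3010026O09Rik, had means of 116 to 350 normalized counts over the 10 groups. Nbr1, a receptor related to Sqstm1, had log2 changes of 0.19, -0.38, -0.05 and -0.07 in order of age. The kinase Tbk1, which phosphorylates Optn, had changes of 0.12, -0.25, -0.23 and -0.07.

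**Figure D3:**
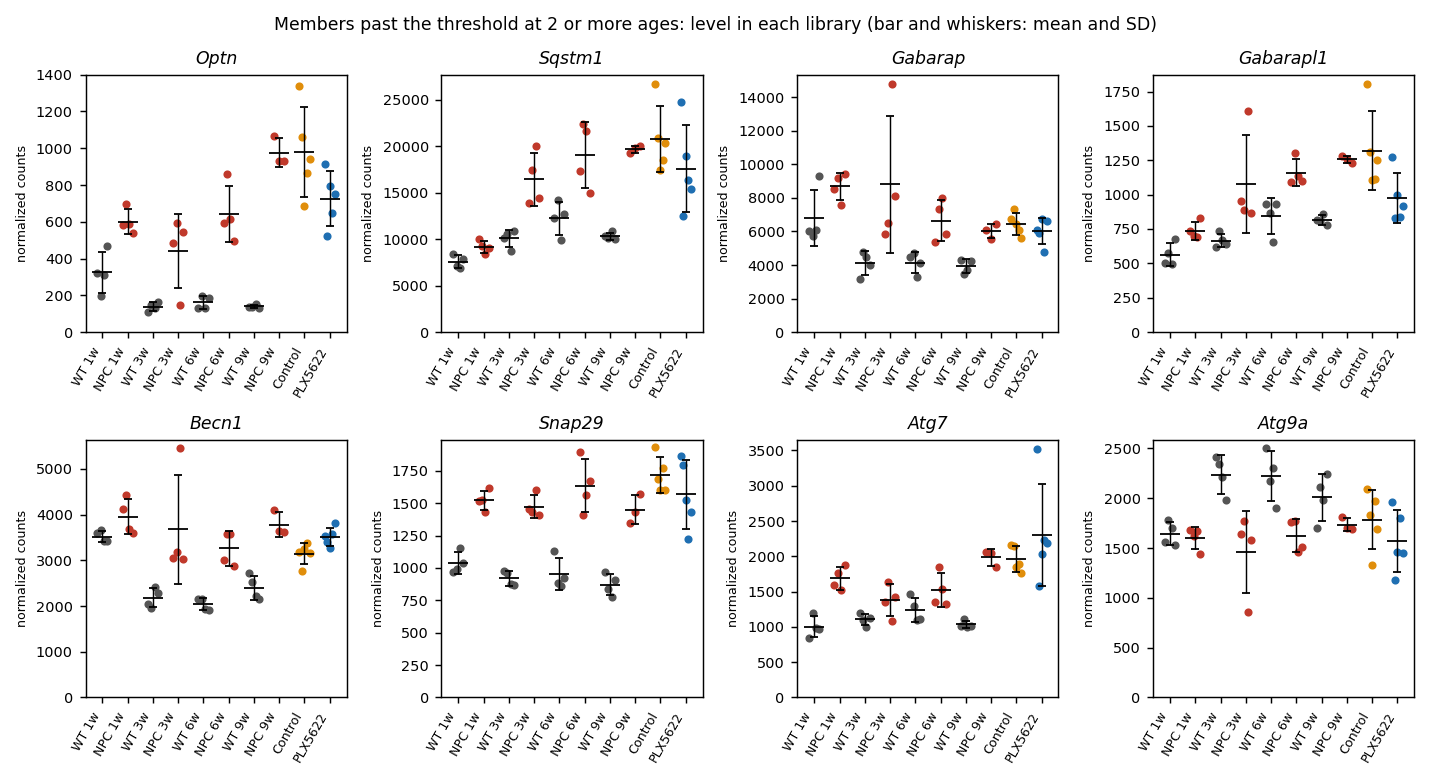
Each panel shows 1 of the 8 genes past the threshold at 2 or more ages, with 1 point per library in normalized counts and the mean and SD of each of the 10 groups. NPC points of Optn, Sqstm1, Snap29 and Becn1 at 6 and 9 weeks lie above all WT points of the same age, and 1 NPC library at 3 weeks is high for Gabarap, Gabarapl1 and Becn1 and low for Optn and Atg9a.

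The sequences just upstream of the start given by RefSeq were read for the list. RefSeq sequences of the mouse build GRCm38.p6 were found for 36 of the 43 genes, as the 250 bases before the start. Both strands were searched for 3 motifs: CACGTG, the core that TFEB and its relatives bind in lysosomal genes, TGACNNNGC, the core of the antioxidant response element, and TGANTCA, the AP-1 site. CACGTG was found in 3 of the 36 (Atg3, Atg5 and Atg7), a share of 8.3% beside 6.0% of all 32851 promoter windows. TGACNNNGC was found in 3 (Atg13, Tax1bp1 and Ulk2), 8.3% beside 10.2%, and TGANTCA in 0 beside 6.7%. The shares of the list count genes with a match in any of their windows, whereas those of all promoters count windows. No window of the list held more than 1 of these motifs. Windows of Optn (chr2:5064118-5064367, minus strand) and Atg7 (chr6:114670846-114671095, plus strand) are shown because they belong to the gene with the largest change at 9 weeks and to the gene called at 1 week whose window holds a match. Neither window overlaps an annotated exon in GENCODE, and capitals mark CACGTG, which starts 132 bases upstream in Atg7. Both windows lie inside the annotated span of their gene (chr6:114643127-114860604 for Atg7 and chr2:5020521-5064399 for Optn), so each gene's span begins upstream of the start that RefSeq's window was taken from. The Optn window ends close to the upstream end of its span, whereas the Atg7 window lies far inside its span. The bases before the span of either gene were not searched.
Optn: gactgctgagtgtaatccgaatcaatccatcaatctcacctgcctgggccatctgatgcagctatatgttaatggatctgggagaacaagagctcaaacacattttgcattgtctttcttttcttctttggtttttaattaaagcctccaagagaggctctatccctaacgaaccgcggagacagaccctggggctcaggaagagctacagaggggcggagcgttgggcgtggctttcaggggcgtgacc
Atg7: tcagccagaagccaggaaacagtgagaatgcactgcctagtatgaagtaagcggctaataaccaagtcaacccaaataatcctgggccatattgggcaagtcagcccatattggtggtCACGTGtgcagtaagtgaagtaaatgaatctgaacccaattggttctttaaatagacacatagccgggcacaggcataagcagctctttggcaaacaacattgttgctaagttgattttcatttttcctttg
A match is a description of these letters and was not tested against binding.

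Fusion of the autophagosome with the lysosome uses the SNAREs Stx17, Snap29 and Vamp8 and the tether Epg5. Snap29 was higher in NPC mice at all 4 ages. At 1 week it stood at 966, 991, 1152 and 1040 normalized counts in WT and at 1514, 1527, 1430 and 1614 in NPC. At 3 weeks the values were 973, 959, 874 and 870 in WT and 1459, 1432, 1599 and 1408 in NPC. At 9 weeks they were 965, 840, 776 and 908 in WT and 1349, 1433 and 1571 in NPC, and at 6 weeks the NPC values of 1411 to 1899 also lay above the WT values of 864 to 1132. The fold changes were 1.47 (1.26 to 1.72, adjusted p = 0.0058), 1.60 (1.37 to 1.88, adjusted p = 5.34e-05), 1.72 (1.47 to 2.01, adjusted p = 6.08e-06) and 1.67 (1.41 to 1.97, adjusted p = 3.65e-05), in order of age by limma. The groups did not overlap at any age. The call was kept at every age when any 1 library was left out, and at 6 weeks without both NPC libraries B and C; among the other alternatives it was lost at 3 weeks with the replicate block.

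Of the other 3 genes of fusion, 2 were lower at 3 weeks. Stx17 was lower at 3 weeks (log2 change -0.63, adjusted p = 0.044), at 684, 769, 628 and 709 in WT and 602, 463, 282 and 513 in NPC. Epg5 was lower at the same age (log2 change -0.97, adjusted p = 0.0462), at 625, 601, 647 and 514 in WT and 628, 306, 144 and 307 in NPC, with groups that overlapped. Without library C these changes were -0.41 (adjusted p = 0.224) and -0.61 (adjusted p = 0.245). Vamp8 did not pass at any age by limma, and was called higher at 3 weeks by edgeR (adjusted p = 0.0417) and DESeq2 (0.0293). The kinase Mtor and its partner Rptor, which hold autophagy in check when nutrients are present, did not pass in untreated NPC against WT mice at any age. Mtor had a change of -0.98 at 3 weeks (adjusted p = 0.0775), and Rptor of -0.43 at 9 weeks (adjusted p = 0.125), which passed with the groups fitted alone (adjusted p = 0.00388).

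Transcript length tracked the difference at 3 weeks. Across the 43 genes, the Spearman correlation between the log2 change and the length of the principal transcript was -0.74, beside -0.32 across 13943 genes; these are correlations across genes of the same libraries and genes are not independent. The 10 genes called higher had a median length of 2204.5 bases and the 7 called lower of 5770 bases, and over all genes called the medians were 2059 and 4167. Lengths ran from 820 bases for Vamp8 to 9660 for Epg5. Without NPC library C the correlation was -0.69 in the list and -0.19 over all genes. By library, it was -0.36 in A, -0.70 in B, -0.75 in C and -0.69 in D. The correlation was therefore negative in each of the 4 NPC libraries. Each was measured against the same WT mean, so these are not 4 separate observations. At the other ages the list's correlation was -0.11 at 1 week, -0.39 at 6 weeks and -0.33 at 9 weeks, and at 6 weeks it was -0.56 in both NPC library B and library C but 0.02 in A and 0.15 in D.

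After a smooth trend on length was taken out of each library, the list's correlation at 3 weeks was -0.41 and that of all genes 0.04, and 11 genes were higher and 4 lower. Rb1cc1 (-0.94, adjusted p = 0.0274), Atg16l1 (-0.61, adjusted p = 0.0113), Atg2a (-0.49, adjusted p = 0.0399) and Atg9a (-0.47, adjusted p = 0.00282) were the lower ones. Ambra1, Stx17 and Epg5, at -0.16, -0.20 and -0.25, no longer passed, and neither did Map1lc3a at 0.27. Ulk2 (0.48, adjusted p = 0.00589) and Atg7 (0.46, adjusted p = 0.0109) passed in addition. With the trend removed and library C left out together, Atg9a was the 1 gene lower (-0.37, adjusted p = 0.0143 by limma). In that fit Optn, Gabarap, Snap29, Sqstm1, Map1lc3b, Becn1, Gabarapl1 and Atg3 (0.38, adjusted p = 0.0368) were still higher. Ulk2 (0.39, adjusted p = 0.0263) and Atg7 (0.44, adjusted p = 0.0239) passed there as well. What lies behind the length trend was not tested.

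**Figure D4:**
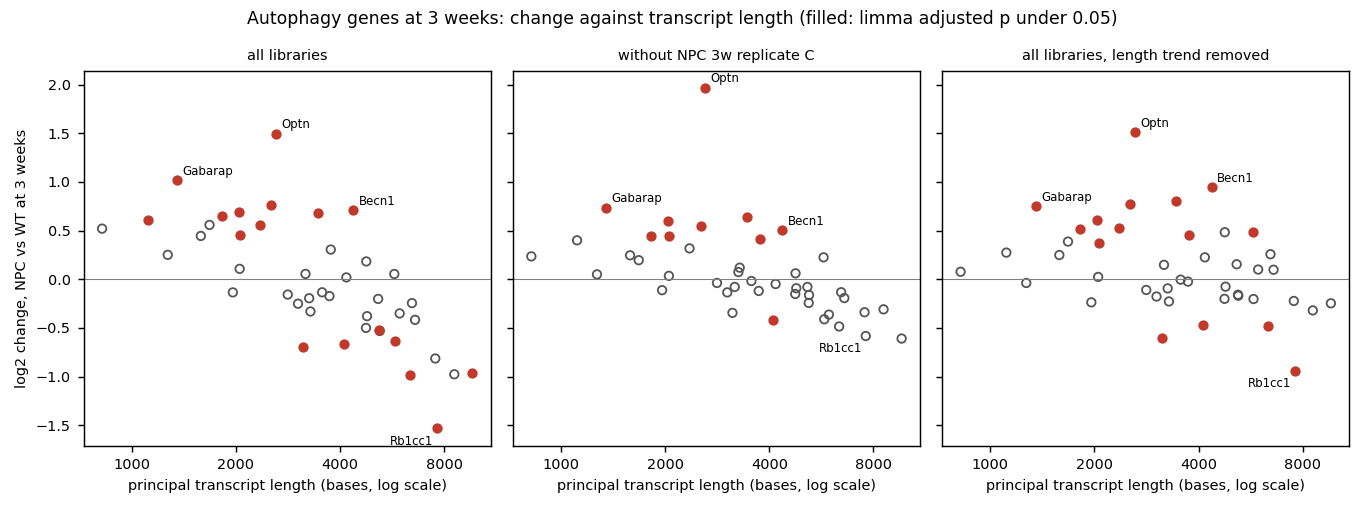
The log2 change of NPC against WT at 3 weeks is plotted against principal transcript length on a log axis for the 43 genes, with filled points for a limma adjusted p under 0.05. With all libraries the points slope down from short to long genes (rho -0.74), they do so without NPC library C as well (rho -0.69), and after removal of the trend in each library Optn, Becn1 and Gabarap are high and Rb1cc1 is low.

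Other cell types' markers were read beside these differences. Of 8 astrocyte markers, 2 were higher at each of 3, 6 and 9 weeks, Gfap among them each time, and none was at 0 in any library. Their summed level was 8936 to 11220 in NPC and 8312 to 10700 in WT at 3 weeks, 10050 to 15100 and 9610 to 10790 at 6 weeks, and 9391 to 12610 and 8408 to 9244 at 9 weeks. Of 6 markers of border-associated macrophages, 2 were higher at 3 weeks, 1 higher and 2 lower at 6 weeks, and 2 higher at 9 weeks. Their summed level at 9 weeks was 566 to 1061 in NPC and 245 to 504 in WT, most of it Mrc1, while Lyve1 was at 0 in 3 of 4 NPC libraries at 3 weeks and in 4 of 4 at 6 weeks. Of 7 microglial markers, 5 were lower at 3 weeks, 3 at 6 weeks and 4 at 9 weeks, with none at 0. The summed level of 8 oligodendrocyte and myelin markers was 8409 to 17550 in NPC and 6726 to 7105 in WT at 9 weeks, with no overlap, and 19840 and 17160 in NPC libraries B and C at 6 weeks. Of 8 monocyte and neutrophil markers, 2 were higher and 1 lower at 3 weeks. Endothelial and pericyte markers summed to 403 to 1025 in NPC and 1187 to 1444 in WT at 3 weeks, to 842.9 to 1020 and 1346 to 1483 at 6 weeks, and to 663.8 to 968.1 and 971.2 to 1275 at 9 weeks. In the PLX5622 experiment, astrocyte markers summed to 5582 to 10220 in PLX5622 and 9233 to 11270 in Control libraries. Endothelial and pericyte markers summed there to 318 to 496 and 478 to 1001. The part of these markers in the differences of the autophagy genes was not tested. Without NPC libraries B and C at 6 weeks, the highest in astrocyte markers, 3 genes of the list were higher at that age, Optn, Snap29 (log2 change 0.91, against 0.78 with them) and Ulk2 (0.67), and 0 were lower.

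With age in WT mice, more genes of the list were higher than lower. Between 1 and 9 weeks, 12 of the 43 genes were higher at 9 weeks, beside 15.6% of all genes, and 3 were lower, beside 17.8%. The median log2 change was 0.29 in the list and 0.02 over all genes, and the ages did not overlap for 15 genes higher (17.8% of all genes) and 4 lower (19.5%). Those higher included Rptor (1.85-fold, 1.43 to 2.38), Atg14 (1.73-fold, 1.44 to 2.09), the receptor Calcoco1 (1.72-fold, 1.41 to 2.10) and Atg13 (1.49-fold, 1.23 to 1.81), with adjusted p from 2.75e-05 to 0.00143 by limma. Uvrag, Wipi2, Atg4b, Atg4c, Atg12, Gabarapl1, Sqstm1 and Nbr1 were the others, at 1.29-fold to 1.46-fold. Nbr1 (adjusted p = 0.0493) lost its call when any 1 of the 8 libraries compared was left out. The log2 change in the list correlated with transcript length (Spearman rho of 0.40, beside 0.23 over all genes), and after length correction Uvrag, Atg4b, Atg4c, Atg12 and Nbr1 no longer passed. Rescaling to the same total gave 10 higher and 5 lower, and with only these groups in the fit 19 were higher.

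Those lower in WT at 9 than at 1 week were Optn (log2 change -1.15, adjusted p = 0.00323), Gabarap (-0.77, adjusted p = 0.00409) and Becn1 (-0.56, adjusted p = 0.00232). All 3 are among the genes higher in NPC than in WT mice from 3 weeks on. In NPC mice over the same ages, Gabarap and Becn1 had changes of -0.52 (adjusted p = 0.088) and -0.06 (adjusted p = 0.816), and Optn of 0.70 (adjusted p = 0.12). With the compared groups fitted alone, Gabarap was called lower (adjusted p = 0.00222) and Optn higher (0.00223), and so they were without NPC library C at 3 weeks (0.0159 and 0.0142). The comparisons share libraries, so these values are set side by side and not as separate evidence. Cell type markers changed over these ages as well. The summed level of 6 border-associated macrophage markers was 4377 to 9108 at 1 week and 245 to 504 at 9 weeks in WT mice. In NPC mice it was 7267 to 8317 and 566 to 1061. Of 8 oligodendrocyte and myelin markers, 1 was higher and 5 were lower in WT mice at 9 weeks. Of 7 microglial markers 5 were higher and 0 lower. The part of these markers in the age differences was not tested.

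In NPC mice 9 genes were higher at 9 weeks than at 1 week, beside 11.6% of all genes, and 0 were lower, beside 10.9%. The ages did not overlap for 13 genes higher (19% of all genes) and 1 lower (18.3%). Atg16l2 was 2.22-fold higher (1.59 to 3.09, adjusted p = 0.000504), Sqstm1 2.15-fold (1.77 to 2.60, adjusted p = 4.29e-07), Gabarapl1 1.70-fold (1.35 to 2.16, adjusted p = 0.000948) and Calcoco1 1.51-fold (1.22 to 1.88, adjusted p = 0.00424). Atg13, Atg14, Atg4c, Atg4d and Atg12 were higher by 1.34-fold to 1.64-fold, and these counts moved most, with 3 genes of the list left without NPC library C at 9 weeks and 5 without NPC library C or D at 1 week or B at 9 weeks. After rescaling 5 were higher and 1 lower.

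The genotype difference at 9 weeks was tested against that at 1 week, a comparison added to those first planned. It was larger at 9 weeks for 3 genes, beside 2.19% of all genes, and smaller for 0, beside 1.06%. They were Optn (difference of log2 changes 1.86, SE 0.44, adjusted p = 0.0129), Atg16l2 (1.33, SE 0.32, adjusted p = 0.0149) and Sqstm1 (0.65, SE 0.19, adjusted p = 0.0496). Sqstm1 kept its call in 1 of 16 fits that left out 1 library, and not by edgeR (adjusted p = 0.0594). Atg16l2 lost its call without NPC library C at 9 weeks (adjusted p = 0.0583), which left 1 gene, Optn, whose adjusted p was at most 0.05 in those fits. For Atg7 (0.18) and Snap29 (0.18) the difference between the ages did not pass.

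Between 1 and 3 weeks, limma called a difference in the genotype effect for 0 of the 43 genes in either direction, beside 0.861% of all genes larger and 0.199% smaller, and edgeR and DESeq2 also called 0. At an unadjusted p under 0.05 by limma there were 16 such genes, beside 18% of all genes. This difference also tracked transcript length (Spearman rho of -0.74 in the list, beside -0.40 over all genes). The lowest adjusted p of the list was 0.158, for Atg9a, with a difference of -0.63. The genes past the threshold at 3 weeks and not at 1 week are thus not shown to differ between these ages.

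The Control group of the PLX5622 experiment gave a further set of NPC libraries at 9 weeks. Against the same WT libraries, 9 genes were higher (11.6% of all 14312 genes tested) and 3 lower (10.4%). Rescaling gave 9 and 4. Libraries did not overlap for 12 genes higher (14% of all genes) and 3 lower (13.6%). Optn stood at 1340, 1063, 685, 867 and 941 normalized counts in these libraries and was 6.82-fold higher than in WT (4.68 to 9.93, adjusted p = 2.82e-10). Sqstm1 (1.99-fold), Snap29 (1.97-fold), Atg7 (1.89-fold), Atg16l2 (1.74-fold), Gabarap (1.64-fold), Gabarapl1 (1.59-fold) and Becn1 (1.31-fold) were higher here as in the untreated NPC mice, and Map1lc3a (1.55-fold, adjusted p = 0.0347) passed in addition. Map1lc3a lost this call in 5 of 10 fits that left out 1 library (adjusted p up to 0.138), and Becn1 without WT library C or D (up to 0.0696) and after length correction (0.0984). Because both comparisons use the 4 WT libraries at 9 weeks, their overlap is not independent. Atg101 (log2 change -0.46), Rptor (-0.49) and Atg4d (-0.38) were lower, and their calls were lost in 6, 4 and 9 of 10 fits that left out 1 library. Atg4d shares 23.2% of its exon bases with Kri1 on the opposite strand.

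Control and untreated NPC mice at 9 weeks were compared directly, and 0 of the 43 genes were called by limma, edgeR or DESeq2, beside 0% of all genes by limma. Libraries did not overlap for 3 genes higher (1.59% of all genes), Ambra1, Atg2b and Snap29, and 1 lower (3.07%), Becn1. Becn1 stood at 3193, 2760, 3249, 3377 and 3151 in Control and at 4104, 3632 and 3610 in untreated libraries, without overlap. It was the 1 gene of the list under an unadjusted p of 0.05 by limma (4.18% of all genes), with a log2 change of -0.27 (adjusted p = 1). What the Control mice received is not given in the sources used here.

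PLX5622 against Control gave 0 genes higher and 0 lower of 43 by limma, edgeR and DESeq2, beside 0.637% and 0.311% of all 12877 genes tested by limma. Libraries did not overlap for 0 genes higher (2.1% of all genes) and 1 lower (1.79%), Atg5. At an unadjusted p under 0.05 by limma there were 10 genes of the list, beside 15% of all genes, and the 10 had negative changes. Ulk1 had the largest, -0.81 (-1.45 to -0.18, adjusted p = 0.219), at 2726, 726, 1460, 1113 and 2208 in PLX5622 and 3424, 2237, 2477, 2620 and 2386 in Control. Atg14, Calcoco1, Ulk2, Gabarapl1 and Optn followed, at -0.52, -0.50, -0.47, -0.43 and -0.42, and Nbr1, Rb1cc1, Map1lc3b and Wipi2 were between -0.34 and -0.27. Optn stood at 914, 522, 793, 649 and 750 in PLX5622, which overlaps with the Control values and lies above every WT value at 9 weeks. For Sqstm1 the interval of the log2 difference ran from -0.63 to 0.11, and for Snap29 from -0.42 to 0.13. Without PLX5622 library 3, the highest in monocyte and neutrophil markers, 0 genes were higher and 0 lower, and Ulk1 and Optn were at -0.81 and -0.46. Without PLX5622 library 5, Ulk2 passed (-0.64, adjusted p = 0.0462).

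A further 80 genes of the pathway were read as a second list, of which 79 were in the table and 78 could be tested in NPC against WT. At 1 week 4 were higher (0.876% of all genes) and 0 lower (0.577%), at 3 weeks 19 (14.3%) and 7 (12.6%), at 6 weeks 13 (8.76%) and 8 (6.5%), and at 9 weeks 18 (11.2%) and 5 (7.77%). The largest rise at each age was that of Rragd, a GTPase that brings mTOR complex 1 to the lysosome, with log2 changes of 1.31, 2.06, 2.62 and 4.40 (adjusted p from 6.1e-10 to 0.0466 by limma). At 9 weeks Ddit4, an inhibitor of mTOR signalling (2.30, adjusted p = 0.046), and the mitochondrial deubiquitinase Usp30 (1.31) came next. The largest falls at 9 weeks were those of Stbd1, a receptor for glycogen (-1.79, adjusted p = 0.000796, after -1.37 at 6 weeks), and the stress-response genes Sesn2 (-0.92) and Sesn1 (-0.91). Of the 15 genes for tethering and fusion, 3, 6, 4 and 6 were higher in order of age and 0 lower, to be read beside the same shares of all genes, and the 3 at 1 week were Vps41, Lamp1 and Rab7 (0.51, 0.48 and 0.45). None of the 5 transcription regulators on the list (Tfeb, Tfe3, Mitf, Foxo3 and Zkscan3) passed at any age in NPC against WT. In PLX5622 against Control 0 of 76 genes of this second list passed.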

How the data were processed

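RNA-seq of sorted cerebellar microglia was analysed from 41 libraries in 10 groups. The authors deposited normalized counts, a signal in which each library's gene counts have been scaled by its own size factor, with no read totals. Per the submitters' processing notes FastQC 0.11.4, STAR 2.5.1b, DESeq2 and build mm9 were named; annotation, counting tool and strand setting are not given in the sources used here. Log2(normalized count + 1) was tested with limma 3.58.1 (trend and robust moderation, two-sided, R 4.3.3) on genes that reached a normalized count of 10 in 3 or more libraries of the fit, with Benjamini-Hochberg adjustment over all genes. Fits used 31 libraries for age and genotype, 10 for PLX5622 and 41 for comparisons with Control mice. Whole reads were recovered for 100% of values (tolerance 1e-06) and tested with edgeR 4.0.16 and DESeq2 1.42.0 as alternatives. Limma alone was checked on simulated reads with known changes, for NPC against WT at 3 weeks and for PLX5622 against Control. These reads held no length trend, no library that stands apart and no replicate block, so the check does not bear on those. Transcript lengths were from GENCODE M21. No pair of libraries within a group agreed within sampling noise. Libraries with the same letter or number deviated together in every pair at 1 week alone (r from 0.111 to 0.163, beside a highest r with another letter from 0.023 to 0.116). Genes named are the 43 members, and of the second list at most the 3 largest rises and 3 largest falls per comparison; the transcription regulators, and Rab7 as the remaining rise at 1 week, were named after their values were seen. Members and lists were chosen with earlier results of these data known.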

Additional observations from a re-analysis of the deposited data

Results flagged for a closer look

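Single libraries stood apart from the rest of their group in 4 of 72 groups of values tested, over the 8 genes past the threshold at 2 or more ages, where chance gives about 1 in 20. Becn1 was at 5458.65 normalized counts in NPC library C at 3 weeks, against 3027.66 to 3175.32 in the other NPC libraries of that age. Gabarapl1 was at 1609.38 in the same library, against 866.39 to 954.08. Gabarap was at 9315.62 in WT library D at 1 week, against 5722.99 to 6110.06. Gabarapl1 was at 1807.0 in Control library 1, against 1108.84 to 1306.75.

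The genotype difference was larger at 9 weeks than at 1 week for 3 genes, by an interaction term in limma. The difference of log2 changes was 1.855 for Optn, 1.331 for Atg16l2 and 0.649 for Sqstm1.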

How the results depend on the processing

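Counts below are members called higher or lower, without the shares of all genes, which are given above for the main fit only. By DESeq2 1 was lower at 9 weeks, and by edgeR 2 were lower at 3 weeks. With array weights 4 were higher at 1 week, 3 lower at 6 weeks, 3 lower at 9 weeks, 20 higher in WT mice with age, 1 lower in NPC mice with age, 7 lower in Control against WT mice, and 1 (Optn) differed more at 3 weeks than at 1 week. Without NPC libraries B and C at 6 weeks 3 were higher and 0 lower at that age. Length correction gave 4 lower at 3 weeks, 2 at 6 weeks, 1 at 9 weeks and 5 higher in NPC mice with age, and, with NPC library C at 3 weeks left out, 1 lower at 3 weeks. Without the filter 4 were lower at 3 weeks and 0 at 6 weeks. Fits on the compared groups alone gave 2 higher and 0 lower at 3 weeks, 2 lower at 6 weeks, 4 lower at 9 weeks, 19 higher in WT mice with age and 1 lower in NPC mice with age. Quantile normalization gave 4 lower at 3 weeks, 1 lower at 9 weeks and 1 lower in NPC mice with age. Rescaling gave 12 lower at 3 weeks, 0 at 6 weeks, 2 at 9 weeks, 5 in WT mice with age, and 5 higher and 1 lower in NPC mice with age.

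The replicate block gave 6 higher at 1 week, 0 higher and 0 lower at 3 weeks, 0 lower at 6 weeks, 3 lower at 9 weeks, 19 higher in WT mice with age, 1 lower in NPC mice with age and 1 gene (Rptor) whose genotype difference was smaller at 9 weeks than at 1 week. Outside 1 week the samples share only a letter or number. Their r ran from -0.114 to 0.148 at 3 weeks, from -0.215 to 0.056 at 6 weeks, from -0.008 to 0.074 at 9 weeks and from -0.148 to 0.267 in the PLX5622 experiment.

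Leaving out 1 library gave 2 to 4 higher at 1 week, 8 to 13 higher and 1 to 11 lower at 3 weeks, 4 to 8 and 0 to 3 at 6 weeks, 6 to 10 and 0 to 3 at 9 weeks, and 9 to 17 and 3 to 3 in WT mice with age. It gave 3 to 10 higher and 0 to 1 lower in NPC mice with age, 7 to 12 and 0 to 3 in Control against WT mice, 1 to 4 genes with a larger difference at 9 weeks, and 0 to 1 lower with PLX5622. At 3 weeks 2 were lower without WT library A, 4 without WT library B, 11 without NPC library A or D and 1 without NPC library C. At 6 weeks 0 were lower without WT library A, B or C or NPC library B, C or D. In Control against WT mice 1 was lower without WT library A or B or Control library 1, 2, 4 or 5, and 0 without WT library C or D. In 1 case the direction turned: Vamp8 in WT mice with age was at 0.40 (log2) after length correction and at -0.18, not called, before it. The cause of these changes was not tested.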
